A study of Mus musculus with 4 samples.

Results

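The MHC class II presentation genes of mouse were followed across 4 arrays of macrophages: Ciita, Cd74, the chain genes H2-Aa, H2-Ab1 and H2-Eb1, and the peptide-loading genes H2-DMa, H2-DMb1, H2-DMb2, H2-Oa and H2-Ob. They were found by gene symbol in the array's annotation, and the probe sets of a gene were to be averaged. Of these 10 genes, 8 carried a probe set annotated to them alone, 1 probe set each, among 19938 genes so measured. H2-DMb1 and H2-DMb2 shared a single probe set. Its values are given beside the others as those of the pair, attributed to neither gene and kept out of the counts.

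The study asked how the response to interleukin-1α (IL-1α), an inflammatory cytokine, differs between macrophage phenotypes. Macrophages were grown from bone marrow of C57BL/6N mice with 10 ng/mL M-CSF and harvested on day 9. They were activated for 48 h, either with 10 ng/mL interferon-γ (M1) or with 20 ng/mL interleukin-4 (M2), and were exposed to vehicle or 10 ng/mL IL-1α for 24 h. The 4 groups, M1 and M2 with vehicle and M1 and M2 with IL-1α, had 1 array each, so no value has a standard deviation, and no array of macrophages without interferon-γ or interleukin-4 was analysed here. The labels do not say whether the arrays came from separate cultures or animals. Levels are RMA signals on the log2 scale, comparable between arrays for a gene but not between genes, and differences are in log2 units.

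MHC class II molecules are pairs of an α and a β chain that show peptides from endocytosed proteins to CD4+ T cells. The invariant chain Cd74 holds the new pair and brings it to the endolysosome, where proteases cut it down, H2-DM exchanges the remaining fragment for peptide, and H2-O restrains H2-DM. Transcription of the other genes of the set depends largely on Ciita, a coactivator that interferon-γ induces in macrophages. Ciita is recruited by RFX, CREB and NF-Y factors bound at the X and Y boxes of class II promoters. Interleukin-4 is also known to raise class II on mouse macrophages.

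The promoters are shown first, because X and Y boxes are where Ciita is recruited to class II genes. RefSeq promoter windows (build GRCm38.p6, 250 bases before to 50 bases after each start) matched 7 of the 10 genes, with 8 windows, since H2-DMa had 2 starts. Ciita, Cd74 and H2-Ab1 had no match. Both strands were searched for the Y box core GATTGG and for an X box core, AGCAAC, whose letters were chosen after the windows had been seen. The Y box core was found in 7 of the 8 windows, and in at least 1 window of all 7 genes, against 16.11% of all 32851 windows. The X box core was found in 3 of the 8, against 14.79% of all. Since its letters were chosen with these windows seen, that comparison cannot show an excess in them. H2-DMb2 carries a Y box core between -110 and -26 relative to the start, but its stretch is not printed. The stretches from -110 to -26 are given 5′ to 3′ for 5 other genes that carry a Y box core there. Matched letters of either motif are in capitals, and no 2 matches overlap.
H2-Aa: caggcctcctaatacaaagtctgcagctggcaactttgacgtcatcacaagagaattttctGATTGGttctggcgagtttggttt
H2-Eb1: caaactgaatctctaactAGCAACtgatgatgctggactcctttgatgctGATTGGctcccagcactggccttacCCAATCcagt
H2-DMb1: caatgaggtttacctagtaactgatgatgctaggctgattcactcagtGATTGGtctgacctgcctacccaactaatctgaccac
H2-Oa: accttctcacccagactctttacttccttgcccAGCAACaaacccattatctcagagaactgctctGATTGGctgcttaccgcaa
H2-Ob: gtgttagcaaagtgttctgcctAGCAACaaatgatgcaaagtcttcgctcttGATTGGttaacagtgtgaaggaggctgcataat

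These stretches lie on chromosome 17 at chr17:34287849-34287933 (H2-Aa, minus strand), chr17:34305757-34305841 (H2-Eb1), chr17:34153081-34153165 (H2-DMb1), chr17:34092269-34092353 (H2-Oa) and chr17:34238795-34238879 (H2-Ob), the last 4 on the plus strand. In H2-Eb1 the X box core began at -92 and the forward Y box core at -60, and a further Y box core lay on the reverse strand at -35 to -30. The same order was found in H2-Ob, at -88 and -58, and in H2-Oa, at -77 and -44. Without an X box core match, the Y box core began at -49 in H2-Aa, -62 in H2-DMb1, -91 in H2-DMb2 and -199 in 1 of the H2-DMa windows. A match is a description of letters in the window and not a measured binding site. Only the exact letters were searched, so a window without a match was not shown to lack the box.

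**Figure D1:**
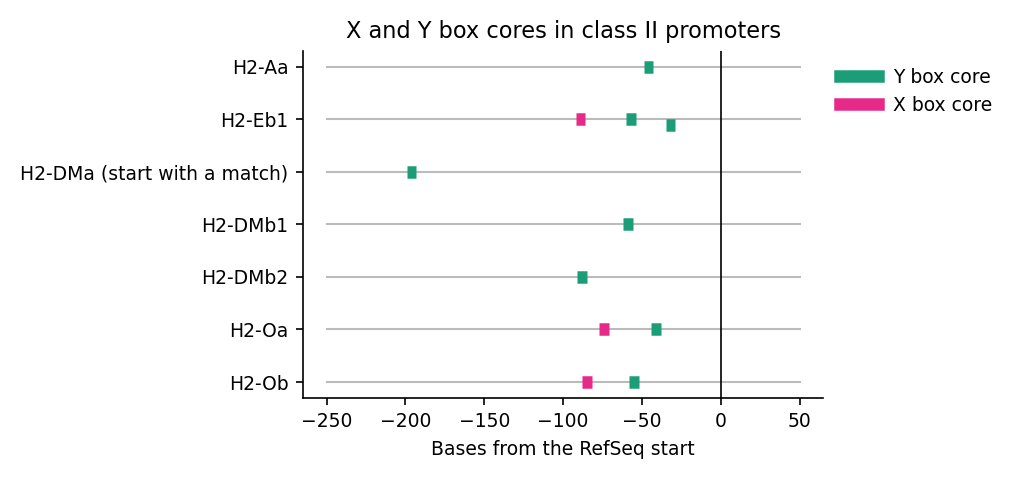
Positions of the Y box core (green) and X box core (pink) in RefSeq promoter windows of 7 class II presentation genes, in bases from the RefSeq start (vertical line); grey lines span the window, and a mark set lower is on the reverse strand. The forward Y box core begins between -44 and -62 in H2-Aa, H2-Eb1, H2-DMb1, H2-Oa and H2-Ob.

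Of 9 macrophage markers, the 8 measured were above the floor on all 4 arrays, where the floor is the median of all gene values (7.617) and a signal under it was not taken as shown to be above background. Under vehicle 2 of the 8, Fcgr1 (-3.06) and Cd14 (-2.33), were 2-fold lower in M2, against 6.83% of all genes. None was 2-fold higher, against 7.03%. Of the 8, 4 read lower and 4 higher in M2, with a median of -0.10, and Csf1r was the highest at 0.56. The 2 arrays of M1 correlated at r = 0.9969 over all probe sets and those of M2 at 0.9958, whereas the lowest correlation between phenotypes was 0.9617. Other cells that carry class II could add signal in bulk RNA, in which fewer cells of a type and less RNA per cell cannot be told apart. Of 8 B cell markers measured, only Cd79b reached the floor, and Ms4a1 read 4.85 to 5.01. Summed levels here take in all measured genes of a list, those under the floor too, and so include background. That of the B cell list was 9.43 and 9.42 in M1 (vehicle, IL-1α) and 9.62 and 9.66 in M2. Of 12 dendritic cell markers, 5 were at the floor in M1 and 4 in M2, with a summed level of 12.07 and 11.96 in M1 and 13.77 and 13.75 in M2. Within that list Flt3 read under the floor on all 4 arrays (6.72 to 6.82), Zbtb46 passed it only in M2 (7.94 and 7.89), and Clec9a and Xcr1 passed it only in M1, where Clec9a read 9.97 and 9.59 and Xcr1 8.44 and 8.24. Ccr7 was also lower in M2 under vehicle (-1.76), whereas Clec10a (4.63), Itgax (2.98) and Batf3 (1.40) were higher. Itgax, which macrophages also express, read 10.36 in M1 vehicle and 13.34 in M2 vehicle and so carried most of the summed level in M2. Of 8 neutrophil markers, none reached the floor in M1 and 5 did in M2, among them Ngp (2.52), S100a8 (1.26) and Ltf (1.12). Ly6g (6.00 to 6.30), Camp (6.81 to 6.95) and Elane (6.79 to 7.06) read under it on all 4 arrays. The summed level of the neutrophil list was 9.91 and 9.97 in M1, all from signals under the floor, and 11.15 and 11.06 in M2. Of 6 T cell markers measured, Cd4 and Cd28 were at the floor, Cd28 was 2.91 higher in M2 under vehicle and Cd3e, Cd3d and Cd3g read under the floor on all 4 arrays. The T cell list summed to 9.84 and 9.78 in M1 and 11.46 and 11.54 in M2. Cd28 alone read 11.10 and 11.22 in M2 and so carried most of that summed level. The part of these cell types in the class II values was not tested.

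M2 macrophages carried lower class II signals than M1 macrophages, although the regulator and the invariant chain were close between the phenotypes. Under vehicle, all 8 genes read lower in M2, with differences from -1.28 (H2-Oa) to -0.13 (Ciita) and a median of -0.70, where the median of all 10489 genes at the floor was 0.01. At least 2-fold lower were 3 of the 8, the β chains H2-Ab1 and H2-Eb1 and the inhibitor subunit H2-Oa, against 6.83% of all genes. None was 2-fold higher, against 7.03% of genes, and 48.8% of all genes were below 0. At 1.5-fold, 6 were lower, against 13.3%. On the IL-1α arrays all 8 were again lower in M2 (median -0.69, all genes 0.03), and 2 of the 8, H2-Ab1 and H2-Oa, were 2-fold lower, against 6.06% of genes, and none higher, against 8.15%. There 46.4% of all genes were below 0, and 5 of the 8 were lower at 1.5-fold, against 11.4%. For 7 of the 8 genes both M1 arrays lay above both M2 arrays, as they did for 38.3% of all genes. H2-Oa and H2-Ob entered these counts through their M1 arrays alone, since both read under the floor in M2, so that a lower M2 reading was partly set by the floor. Over the 6 genes at the floor on all 4 arrays, all 6 were lower in M2 under vehicle (median -0.69) and under IL-1α (median -0.50). Of these 6, 2 and 1 were 2-fold lower, and 4 and 3 were lower at 1.5-fold. For 5 of these 6 both M1 arrays lay above both M2 arrays.

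**Figure D2:**
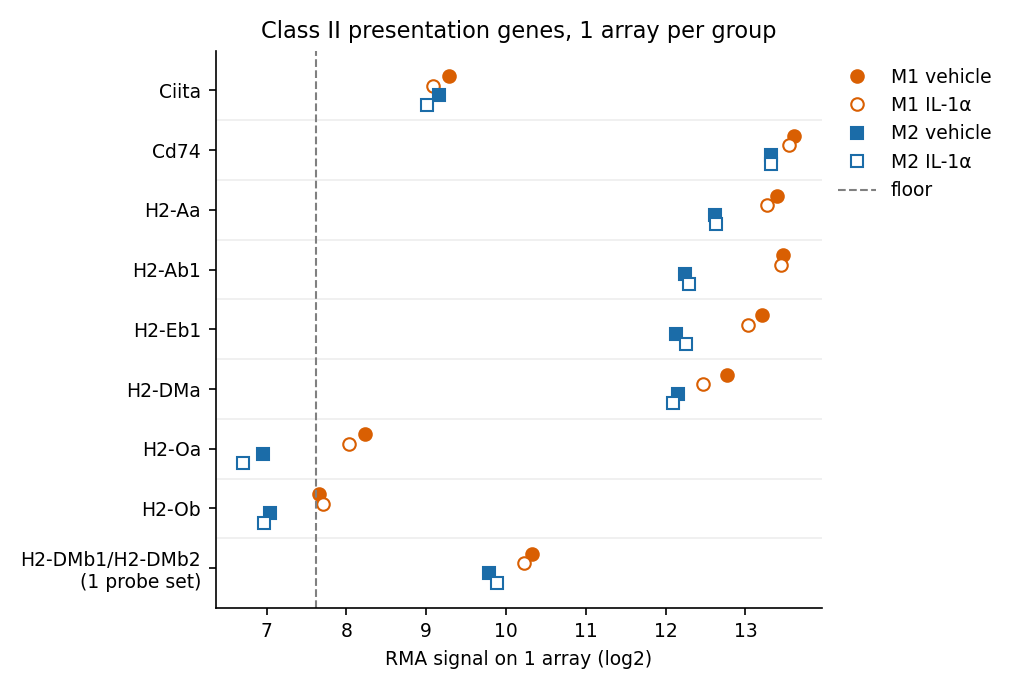
RMA signal (log2) of each class II presentation gene on the 4 arrays, with M1 as circles and M2 as squares, filled for vehicle and open for IL-1α; the dashed line is the floor of 7.617. The M1 and M2 symbols are apart for every gene except Ciita, and the M2 symbols of H2-Oa and H2-Ob lie under the floor.

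Ciita, the coactivator on which the other genes largely depend, read 9.28 in M1 vehicle, 9.08 in M1 IL-1α, 9.16 in M2 vehicle and 9.01 in M2 IL-1α. M2 vehicle lay between the 2 M1 arrays, so the phenotypes overlapped. The difference was -0.13 under vehicle and -0.07 under IL-1α. Ciita is transcribed from several promoters that differ between cell types, and its 1 probe set gives no level per promoter. Cd74, the invariant chain, read 13.61 and 13.55 in M1 (vehicle, then IL-1α, as in the sentences that follow) and 13.33 on both M2 arrays. Both M1 arrays were higher, by 0.28 under vehicle and 0.22 under IL-1α (1.2-fold).

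The chains of the I-A molecule differed more than Cd74. H2-Aa, the I-A α chain, read 13.40 and 13.27 in M1 and 12.62 and 12.63 in M2, a difference of -0.78 under vehicle and -0.64 under IL-1α. H2-Ab1, its β chain, read 13.47 and 13.44 in M1 and 12.24 and 12.29 in M2, a difference of -1.23 and -1.15. H2-Eb1, the I-E β chain, read 13.21 and 13.03 in M1 and 12.13 and 12.25 in M2, a difference of -1.08 and -0.78. In each of the 3 chain genes every M1 array was higher than every M2 array. The α chain of I-E is encoded by H2-Ea, which mice of the C57BL/6 background are known not to express because of a deletion, and its probe set read 5.71 to 5.82, under the floor on all 4 arrays. The neighbouring chain gene H2-Eb2 was also under the floor throughout, at 5.95 to 6.60. H2-Eb1 was thus above the floor on all 4 arrays, and the gene of its partner chain was not.

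Among the loading genes, H2-DMa, the α chain of the peptide exchange factor H2-DM, read 12.76 and 12.47 in M1 and 12.16 and 12.10 in M2, a difference of -0.60 under vehicle and -0.37 under IL-1α. The probe set of the H2-DM β chain genes H2-DMb1 and H2-DMb2 read 10.32 and 10.23 in M1 and 9.79 and 9.89 in M2, a difference of -0.53 and -0.35. The α and β chain signals of H2-DM were both lower in M2. H2-Oa and H2-Ob form H2-O, best known from B cells and some dendritic cells. H2-Oa read 8.23 and 8.04 in M1 and 6.95 and 6.71 in M2, and H2-Ob 7.66 and 7.71 in M1 and 7.05 and 6.97 in M2. H2-O was the only part of the set whose signals crossed the floor between phenotypes: both genes passed it on the M1 arrays, H2-Ob narrowly, and neither did in M2, so the sizes of their differences (-1.28 and -0.61 under vehicle) are uncertain.

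An additive limma model over the 10625 genes at the floor, with phenotype and treatment as terms, tested the M2 minus M1 effect common to both treatments. It called 7 of the 8 genes lower in M2 and none higher, against 29.3% of all genes called lower and 33.2% called higher. Over the 6 genes at the floor on all 4 arrays it called 5 lower, and the calls of H2-Oa and H2-Ob rest on M2 signals not shown to be above background. The effect was -1.19 ± 0.05 (SE) for H2-Ab1 (limma adjusted p = 8.71e-10) and -0.25 ± 0.04 for Cd74 (limma adjusted p = 2.21e-04). Ciita did not pass, at -0.10 ± 0.08 (limma adjusted p = 0.33). H2-Eb1, H2-Aa and H2-DMa had effects of -0.93, -0.71 and -0.49, with limma adjusted p from 1.49e-07 to 2.24e-05. The effects fitted for H2-Oa (-1.30) and H2-Ob (-0.67) are given as values alone. The yardstick of these p-values is how far 4 arrays depart from additivity, with 1 residual degree of freedom per gene and 10.05 borrowed from all genes. Spread between cultures or animals does not enter them.

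The signals of Cd74, H2-Aa, H2-Ab1, H2-Eb1 and H2-DMa lay 0.79 to 2.37 log2 units under the top of their arrays. Whether a ceiling narrowed their differences was not tested. Ciita lay at least 5.12 units under the top.

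The genes around the class II set were read from lists of its transcription, processing and traffic. Factors that bind or drive class II promoters had a median difference of -0.07 between M2 and M1 under vehicle. Of the 19 measured, limma called 7 lower and 4 higher in M2, against 29.3% and 33.2% of all genes, and 3 were at least 2-fold lower, against 6.83%. The 3 were the interferon-responsive factor Irf1 (-1.93), Irf8 (-1.37), a lineage factor of macrophages and dendritic cells, and the acetyltransferase Kat2b (-1.11). Rfx5, the large subunit of the X box factor, was called lower (-0.34 ± 0.09, limma adjusted p = 6.81e-03), whereas its partners Rfxank and Rfxap were not called (-0.17 ± 0.08 and 0.17 ± 0.09). Of the Y box factor, Nfya (0.59 ± 0.06) and Nfyc (0.47 ± 0.09) were called higher in M2, with limma adjusted p of 2.04e-06 and 6.46e-04, and Nfyb was not called (-0.01 ± 0.10).

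Endolysosomal processing genes had a median of 0.16 under vehicle, and of the 14 at the floor limma called 9 higher and 3 lower in M2, against 33.2% and 29.3% of all genes. Ctss, a protease that trims the invariant chain in antigen-presenting cells, was close between phenotypes, at 13.30 and 13.27 in M1 and 13.34 on both M2 arrays, and was not called (limma adjusted p = 0.239). Ctsl, which does this step in thymic epithelium, was 2-fold higher in M2 (1.41 under vehicle, 1.58 under IL-1α). At the other end, 3 were at least 2-fold lower: the aminopeptidases Ctsc (-2.31) and Ctsh (-1.79), and Sppl2a (-1.13), the membrane protease that clears the last Cd74 fragment. The thiol reductase Ifi30, which opens disulfide bonds of antigens, was called higher in M2 (0.60 ± 0.06, limma adjusted p = 1.80e-06).

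Of 10 traffic and surface genes, limma called 3 lower and 5 higher in M2, against 29.3% and 33.2% of all genes, and none reached 2-fold. Marchf1, the ubiquitin ligase that removes class II from the surface, read 10.74 and 10.76 in M1 and 9.98 and 9.89 in M2 (-0.81 ± 0.07, limma adjusted p = 1.09e-06). The ligase signal was lower in the phenotype with the lower class II signals. Its relative Marchf8 was called higher in M2 (0.34 ± 0.07). The tetraspanin Cd82 was at -0.84 and Cd63 at 0.70 under vehicle, and the clathrin light chain Clta at 0.73 under IL-1α.

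**Figure D3:**
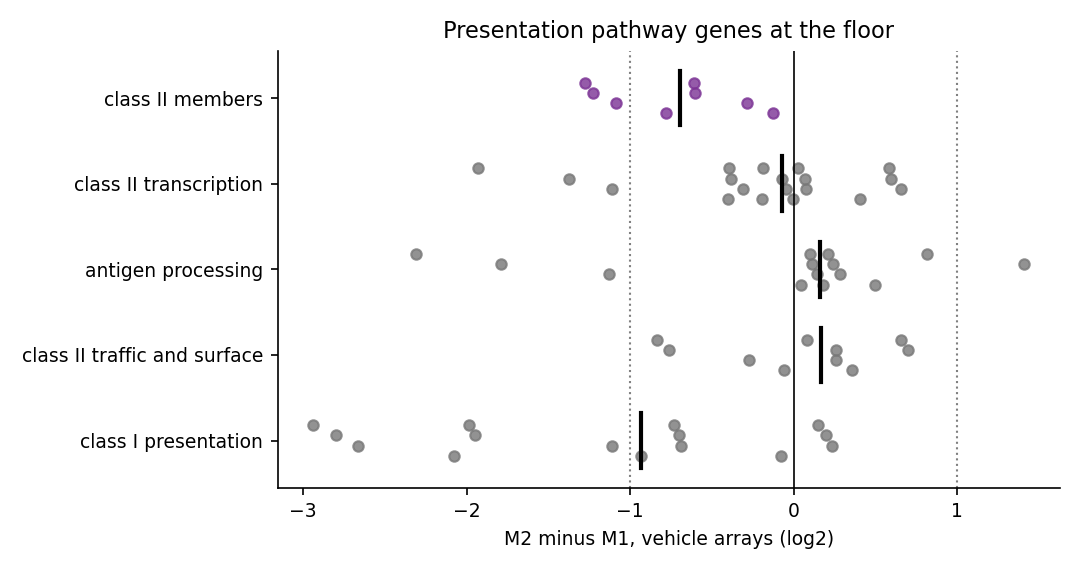
M2 minus M1 difference (log2) on the vehicle arrays for class II presentation genes and 4 context lists; each point is 1 gene at the floor, black bars are list medians and dotted lines mark 2-fold. The class II genes lie at -1.28 to -0.13 (median -0.70) and the class I genes at -2.94 to 0.23 (median -0.94). H2-Oa (-1.28) and H2-Ob were under the floor in M2, and the class II genes at the floor on all 4 arrays lie at -1.23 to -0.13 (median -0.69).

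The class I pathway, which shows peptides from the cytosol to CD8+ T cells, gave wider differences on the same arrays. Of 15 class I genes measured, 7 were at least 2-fold lower in M2 under vehicle, with a median of -0.94, and limma called 12 lower and 2 higher, where 6.83% of all genes were 2-fold lower and limma called 29.3% lower and 33.2% higher. The class I coactivator Nlrc5, averaged over 19 probe sets, stood at -2.94 under vehicle and -2.92 under IL-1α. Ciita, its class II counterpart with 1 probe set, stood at -0.13 and -0.07. The largest among the other class I genes were the peptide transporter subunit Tap1 (-2.80), the editing factor Tapbpl (-2.66) and the immunoproteasome subunit Psmb9 (-2.08). H2-K1 and H2-D1 share probe sets and were not analysed here. B2m, the light chain of class I molecules, differed by -0.08. The difference between the class I and class II genes was not tested.

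Both pathways meet in the class II region of chromosome 17, where RefSeq places Psmb9, Tap1, Psmb8 and Tap2 in a row between H2-DMb1 and H2-Ob. This reading was chosen after the values had been seen. Under vehicle these 4 genes differed by -2.08, -2.80, -1.99 and -1.95, and on the IL-1α arrays by -1.94, -2.65, -1.67 and -2.03. The class II genes of the region that were at the floor on all 4 arrays differed by -0.60 (H2-DMa) to -1.23 (H2-Ab1) under vehicle, and the H2-DM β probe set by -0.53. H2-Oa and H2-Ob are not ranked against them, because their M2 signals lay under the floor. Brd2, a bromodomain gene between H2-Oa and H2-DMa, differed by -0.84 under vehicle and -0.69 under IL-1α.

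**Figure D4:**
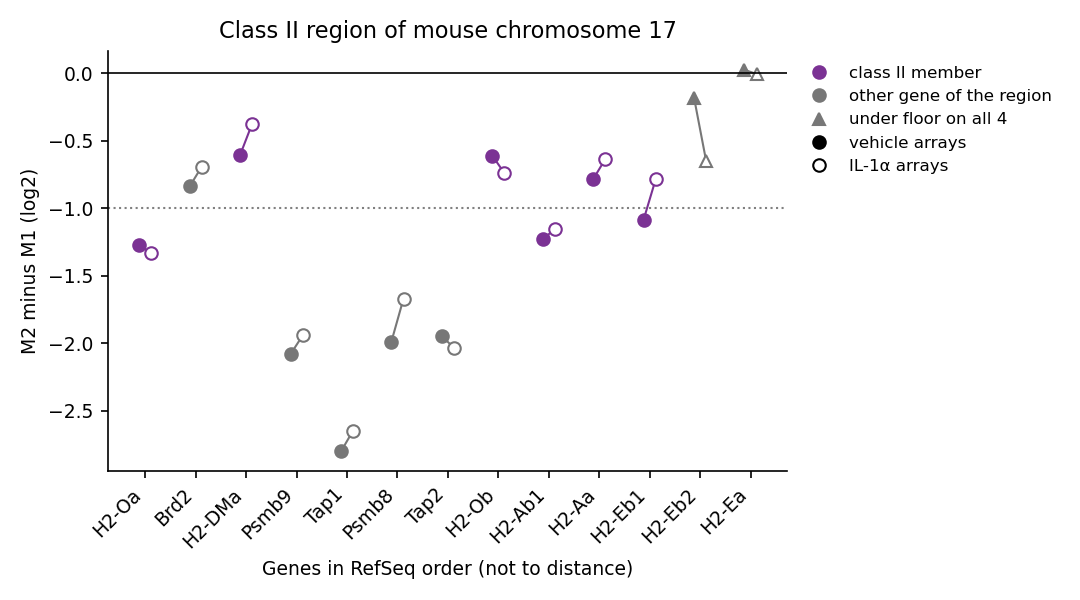
M2 minus M1 difference (log2) of the measured genes of the class II region, in RefSeq order and not to distance; purple is a class II presentation gene, grey another gene, filled the vehicle arrays, open the IL-1α arrays, and triangles are genes under the floor on all 4 arrays. Psmb9, Tap1, Psmb8 and Tap2 lie between -2.80 and -1.67, and H2-DMa, H2-Ab1, H2-Aa and H2-Eb1 between -1.23 and -0.37; H2-Oa and H2-Ob were under the floor in M2 and are not ranked.

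No class II presentation gene differed by 2-fold or by 1.5-fold with IL-1α in either phenotype. Among all genes in M1, 0% passed 2-fold in either direction, and 0.04% were lower and 0.02% higher at 1.5-fold. In M2 the shares were 0.35% higher at 2-fold and 0.875% at 1.5-fold, with 0% lower. In M1, 7 of the 8 genes read lower with IL-1α, with a median of -0.15, where 50.8% of 10012 genes were below 0 and the median of all genes was -0.0018. The difference was -0.30 for H2-DMa, -0.20 for Ciita, -0.19 for H2-Oa, -0.17 for H2-Eb1, -0.13 for H2-Aa, -0.06 for Cd74 and -0.03 for H2-Ab1. H2-Ob was at 0.05, and the H2-DM β probe set at -0.09. Only H2-DMa lay outside the band that held the central 95% of genes in this pair (-0.24 to 0.21), and 1.01% of genes had a lower value. No replicate stands behind these differences, and 7 of 8 stayed below 0 after loess centring and after a further quantile normalisation.

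In M2, 6 of the 8 genes were at the floor, and 3 of them were below 0, where 30.7% of 10284 genes were. The median was 0.0068, against 0.05 for all genes. Ciita was at -0.14, H2-DMa at -0.06 and Cd74 at -0.0001, and H2-Aa at 0.01, H2-Ab1 at 0.05 and H2-Eb1 at 0.13. The H2-DM β probe set was at 0.09. All 6 lay inside the central 95% of genes (-0.23 to 0.38), and the number below 0 became 5 of 6 after loess centring and 2 of 6 after quantile normalisation, so the signs in M2 are not settled. H2-Oa (-0.25) and H2-Ob (-0.08) read under the floor on both M2 arrays.

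**Figure D5:**
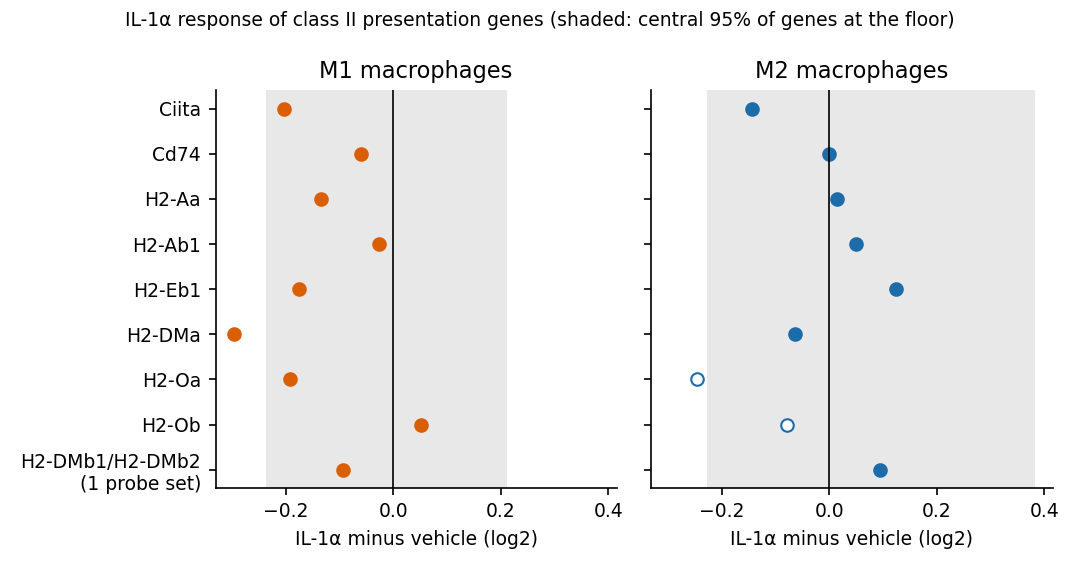
IL-1α minus vehicle difference (log2) of each class II presentation gene in M1 (left) and M2 (right); open points did not reach the floor on either array and shading is the central 95% of all genes at the floor. In M1 only H2-DMa (-0.30) lies outside the shading, and in M2 no gene at the floor does.

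The study was designed around a contrast of all 4 arrays, the response in M2 minus that in M1. It ran from -0.13 (H2-Ob) to 0.30 (H2-Eb1) over the 8 genes, with a median of 0.07 against 0.06 for all 10625 genes, and 2 of the 8 were below 0, against 33.9% of genes. Loess centring turned the sign of Cd74 and H2-Oa, and quantile normalisation that of Ciita and H2-Oa. H2-Eb1 and H2-DMa (0.23) had the highest values, and all 8 lay inside the central 95% of genes (-0.31 to 0.45). With 4 arrays this contrast cannot be tested. The additive limma model, which tests a change common to both phenotypes, called none of the 8 for IL-1α and none of all 10625 genes, where 6.08% had an unadjusted p under 0.05. The smallest adjusted p of the 8 was that of H2-DMa (-0.18 ± 0.06, limma adjusted p = 0.587), and Ciita was at -0.17 ± 0.08 (limma adjusted p = 0.831).

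In the transcription, processing and traffic lists, the response that stood furthest from 0 was that of Cd83, a surface protein known to keep class II on the membrane by opposing Marchf1. Cd83 read 10.68 in M1 vehicle, 10.48 in M1 IL-1α, 10.62 in M2 vehicle and 11.18 in M2 IL-1α. It was highest on the M2 IL-1α array, 0.56 above M2 vehicle, and was 0.20 lower with IL-1α in M1, a difference of responses of 0.76. Marchf1 differed by 0.02 in M1 and -0.09 in M2. Irf1 was at -0.03 in M1 and 0.26 in M2, and Jak2, which relays interferon-γ signals, at 0.12 and 0.23. No gene of these lists differed by 2-fold with IL-1α in either phenotype.

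By the distance between centred profiles over the 4 arrays, the genes most like the median of the 8 were Msrb1 (0.02), Slc43a2 (0.02), Acot7 (0.02), Tlr13 (0.02) and Lhx2 (0.02). H2-Aa, at 0.05, was the member nearest to that median, and Ciita, at 0.62, the farthest. Likeness over 4 arrays describes little more than the step between phenotypes.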

How the data were processed

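Per the submitters' processing notes, the authors obtained the deposited log2 signals per probe set with RMA in Affymetrix Expression Console. The sources used here give no version, setting or build, and the log base was inferred from the range of the values (3.09 to 14.47). Array medians were 7.32 to 7.38. RMA brings arrays to a common distribution, so a global difference in RNA output is not visible. Precision is limited by how few arrays there are.

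Of 35556 probe sets, 21789 carried 1 gene in GEO's platform annotation, and 21698 of these matched a RefSeq table (GRCm38.p6) by Entrez number. Probe sets of a gene were averaged. A difference was counted at 2-fold where at least 1 array of the pair reached the floor of 7.617. limma 3.58.1 (R 4.3.3) was fitted to all 10625 genes at the floor (phenotype plus treatment, eBayes with a trend, Benjamini-Hochberg threshold 0.05). A list's summed level is the log2 of the summed linear signals of all its measured genes, those under the floor included. Of these steps, only the limma phenotype effect was tested on simulated data. The alternatives tried were 1.5-fold in place of 2-fold, a floor of 9.635 (75th percentile) or none, loess centring or quantile normalisation, the brightest probe set, eBayes without the trend or robust and, added after seeing the data, only the genes at the floor on all 4 arrays. Context genes were named from those past 2-fold or among the 2 largest differences of their list in a comparison. Not all genes that met this rule were named, among them Ifngr1, Kif5b, Psme1, Psme2 and Erap1. A few further list members were named after their values were seen, as were Brd2 and the RefSeq order. The members and lists were chosen with earlier results of these data known. Sequences are from RefSeq.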

Additional observations from a re-analysis of the deposited data

Results flagged for a closer look

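Responses to IL-1α of opposite sign in M1 and M2 were looked for in the class II genes at the floor in both pairs, the H2-DM β probe set, and the genes of the class II context lists with 1 of the 2 largest IL-1α differences of their list in either phenotype. They were found in 3 of the 6 class II genes so chosen, the probe set and 6 of the list genes. Genes outside this choice, among them H2-Ob, which read under the floor in M2, were not counted. Among all genes at the floor, 50.8% were below 0 in M1 and 30.7% in M2. The share of all genes with responses of opposite sign was not computed, so the counts have nothing to be set against. Each phenotype had 1 array pair, so these differences were not tested. The response difference (M2 minus M1, log2) was 0.148 for H2-Aa (-0.13 in M1, 0.01 in M2), 0.077 for H2-Ab1 (-0.03, 0.05), 0.300 for H2-Eb1 (-0.17, 0.13) and 0.187 for the probe set of H2-DMb1 and H2-DMb2 (-0.09, 0.09). It was 0.764 for Cd83, 0.288 for Irf1, 0.215 for Ifi30, 0.168 for Ctsl, 0.128 for Tpp1, a lysosomal peptidase, and -0.214 for the acetyltransferase Crebbp. Among these, only Cd83 lay outside the central 95% of genes for this contrast (-0.31 to 0.45). After loess centring, the M2 responses of H2-Aa (-0.05) and H2-Ab1 (-0.01) were negative, as in M1, so their opposite signs are not settled. Quantile normalisation turned the M2 response of Cd74 positive (0.0008).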

How the results depend on the processing

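At 1.5-fold in place of 2-fold, 6 genes were lower in M2 under vehicle and 5 under IL-1α (2-fold: 3 and 2). These counts include H2-Oa and H2-Ob, and over the 6 genes at the floor on all 4 arrays the 1.5-fold counts were 4 and 3. A floor raised to the 75th percentile, which leaves out Ciita, H2-Oa and H2-Ob, left 1 gene 2-fold lower in M2 under IL-1α. Keeping only the 6 genes at the floor on all 4 arrays, an alternative chosen after seeing the data, left 1 gene 2-fold lower under IL-1α and moved that median from -0.69 to -0.50. The other medians moved by less than 0.111, the SD over genes of the M1 IL-1α difference, and no limma call of a class II gene changed in the alternatives run. The adjusted p of Ciita for phenotype ranged from 0.139 to 0.448, and that of Cd74 from 7.38e-05 to 0.0198. For single genes, 2 values moved by more than that SD, both for Ciita after quantile normalisation: its M2 response (-0.26) and its response difference (-0.08). Each gene has 1 probe set, so the brightest probe set gave the same values. No paired analysis was possible because each group holds 1 array. No replicate could be left out. H2-Oa and H2-Ob read under the floor in M2, so signal over background limits their differences.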
